A study of Homo sapiens with 2 samples.

Results

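The interferon-stimulated genes are taken here as a named list of 44 protein-coding genes, nearly all of which cells switch on when interferon reaches them. The list also holds IFNB1, which encodes interferon beta itself. Members were matched by gene symbol to the 57820 counted genes. All 44 were found. Their levels were measured by RNA sequencing in T47D cells, a widely used luminal breast cancer line of human origin that depends on the estrogen receptor. They carried the Y537S exchange in ESR1, the gene of estrogen receptor alpha. They had been placed in hormone-deprived medium the day before transfection with 25 nM of a control siRNA, and no interferon is named in the labels. This is 1 group with 2 replicate libraries, so each value describes that control state, no test between conditions was possible, and the gap between the replicates is the noise that any difference would have to beat. Whether the replicates came from separate cultures, and whether the edited line was 1 clone, is not given in the labels, and gene counts cannot show the allele.

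Type I interferons bind a receptor on the cell surface whose kinases, JAK1 and TYK2, activate STAT2. With IRF9 it is part of a complex that binds the interferon-stimulated response element in the promoters of the induced genes. The products sense, cut, edit or trap viral nucleic acids and virions, and several of them, STAT2, IRF7 and IRF9 among them, carry the signal further. In breast cancer cells a standing, low expression of such genes without added interferon is well known.

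Reads on genes numbered 37198274 in replicate 2 and 41370662 in replicate 1. Mitochondrial genes took 1.09% of the reads in replicate 2 and 0.899% in replicate 1. All 7 luminal epithelial markers were detected (KRT8, KRT18, KRT19, EPCAM, GATA3, FOXA1 and ESR1), with a summed level of 2218 TPM in replicate 2 and 2356 TPM in replicate 1, which fits the labelled cell type. Here CPM is the read count scaled to library size, TPM also divides by exon length, and detection means that each library reached 1 CPM. None of 7 immune cell markers was detected, and the plasmacytoid dendritic cell markers CLEC4C, IL3RA and LILRA4 had 0 reads.

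The promoters of the members are shown first because many, though not all, hold the element on which interferon acts. The response element was searched on both strands as GAAA, any 2 bases and GAAA again, in RefSeq promoter windows (GRCh38.p14), which run from 250 bases before to 50 bases after a gene's start. Of the 37 members with a window, 24 held the motif (64.9%), against 1195 of 27305 genes in the whole table (4.38%). In the bases before the start alone it stood in 22 of the 37 members (59.5%) and in 3.71% of genes. The motif of the gamma-activated site, TTCNNNGAA, stood in 12 of the 37 members (32.4%) and in 9.38% of genes. A match is a run of letters and does not show binding. The list names genes induced by interferon, which acts on the response element, so its high share describes the list and is no result of these libraries. The 7 members without a window were IRF7, OAS2, OASL, IFIT2, USP18, IFITM2 and MX2.

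The bases before the start of 4 genes follow, in lower case with the matches of the response element or its complement in capitals. ISG15 and IFIT1 had the largest gaps between the replicates, BST2 had the highest level, and STAT2 is a high member without a match. The windows are chr1:1013247-1013496 on the plus strand for ISG15, chr10:89392373-89392622 on the plus strand for IFIT1, chr19:17405631-17405880 on the minus strand for BST2 and chr12:56360108-56360357 on the minus strand for STAT2.
ISG15: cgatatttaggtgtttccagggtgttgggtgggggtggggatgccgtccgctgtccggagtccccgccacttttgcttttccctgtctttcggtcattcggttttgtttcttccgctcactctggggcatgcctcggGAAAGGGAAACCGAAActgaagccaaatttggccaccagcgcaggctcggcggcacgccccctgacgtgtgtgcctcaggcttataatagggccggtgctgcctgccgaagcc
IFIT1: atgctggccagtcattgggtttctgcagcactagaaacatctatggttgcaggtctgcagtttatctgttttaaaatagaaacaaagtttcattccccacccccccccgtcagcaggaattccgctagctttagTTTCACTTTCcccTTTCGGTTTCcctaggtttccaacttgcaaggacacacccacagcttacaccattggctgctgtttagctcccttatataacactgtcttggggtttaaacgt
BST2: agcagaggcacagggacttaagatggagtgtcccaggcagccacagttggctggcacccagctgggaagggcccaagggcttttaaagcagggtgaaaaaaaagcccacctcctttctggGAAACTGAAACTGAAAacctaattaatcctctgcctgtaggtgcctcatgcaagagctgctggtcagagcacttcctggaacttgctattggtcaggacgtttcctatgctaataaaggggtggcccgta
STAT2: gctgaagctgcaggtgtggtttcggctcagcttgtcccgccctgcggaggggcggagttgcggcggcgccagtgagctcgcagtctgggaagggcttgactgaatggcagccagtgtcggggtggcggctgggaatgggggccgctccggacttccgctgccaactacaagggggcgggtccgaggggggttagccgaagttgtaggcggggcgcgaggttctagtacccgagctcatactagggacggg
In ISG15 the matches overlap, between 98 and 113 bases before the start. In IFIT1 they are separate and read on the opposite strand, between 94 and 116 bases before the start. In BST2 they overlap as in ISG15, between 115 and 130 bases before the start, so closely similar elements stood before a gene with a 3.34-fold gap between the replicates and before one with a 1.04-fold gap. The BST2 window also held the gamma-activated site motif.

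Shorter stretches of 60 bases show the element in members that differ in level and in replicate gap. The first 4 were higher in replicate 2 (IFIT3, IFITM3, IFI6 and OAS3), but IFITM3 and OAS3 stayed within the replicate spread of genes at their level. HERC5, IFIH1 and PARP14 differed little between the libraries. EPSTI1 and SAMD9 were lower in replicate 2, SAMD9 within that spread.
IFIT3: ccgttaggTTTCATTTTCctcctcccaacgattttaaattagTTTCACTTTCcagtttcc
IFITM3: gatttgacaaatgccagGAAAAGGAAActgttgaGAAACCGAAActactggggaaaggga
IFI6: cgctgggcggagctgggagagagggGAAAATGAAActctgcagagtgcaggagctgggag
OAS3: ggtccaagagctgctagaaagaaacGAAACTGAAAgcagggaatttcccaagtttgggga
HERC5: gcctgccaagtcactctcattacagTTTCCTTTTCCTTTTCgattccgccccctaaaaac
IFIH1: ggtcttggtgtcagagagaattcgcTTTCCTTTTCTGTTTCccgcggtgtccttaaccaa
PARP14: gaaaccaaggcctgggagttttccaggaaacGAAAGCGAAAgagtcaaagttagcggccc
EPSTI1: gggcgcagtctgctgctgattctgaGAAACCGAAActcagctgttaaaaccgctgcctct
SAMD9: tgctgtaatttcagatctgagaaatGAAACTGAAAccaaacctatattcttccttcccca
In the same order these lie at chr10:89327833-89327892 (plus strand) for IFIT3, chr11:320870-320929 (minus strand) for IFITM3, chr1:27672314-27672373 (minus strand) for IFI6, chr12:112938306-112938365 (plus strand) for OAS3, chr4:88456969-88457028 (plus strand) for HERC5, chr2:162318809-162318868 (minus strand) for IFIH1, chr3:122680779-122680838 (plus strand) for PARP14, chr13:42992257-42992316 (minus strand) for EPSTI1 and chr7:93118081-93118140 (minus strand) for SAMD9. Before HERC5 and IFIH1 the matches shown form overlapping pairs, as in ISG15 and BST2. The stretches do not show every match: the whole window held 3 for HERC5, IFIH1 and IFI6, and 2 for OAS3. EPSTI1 and SAMD9 each held 1 match in the whole window.

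At the detection level 33 of the 44 members were detected (75.0%), against 24.5% of all genes and 60.9% of protein-coding genes. The members together held 36533 reads in replicate 2 and 37243 in replicate 1, or 0.0982% of the reads in replicate 2 and 0.0900% in replicate 1. ADAR alone took 43.5% of the members' reads in replicate 2 and 46.2% in replicate 1. ADAR, BST2 and STAT2 together took 63.9% in replicate 2 and 67.2% in replicate 1, so the summed level of the list is mostly that of 3 genes. Without these, the other 41 members summed to 355 CPM in replicate 2 and 295 CPM in replicate 1. In a bulk sample, fewer cells with a gene on and less RNA per cell cannot be told apart.

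The median member stood at 1.55 TPM in replicate 2 and 1.25 TPM in replicate 1 (mean 1.40 ± 0.21, SD, n = 2). All protein-coding genes had a median of 2.30 TPM on the mean of the libraries. The 33 detected members had a median of 3.05 TPM, against 9.23 TPM for detected protein-coding genes. More members than usual were thus detected, at levels below those of the usual detected gene. On the mean of the libraries 12 members exceeded 5 TPM, 14 lay between 1 and 5 TPM, and 18 lay at or below 1 TPM.

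**Figure D1:**
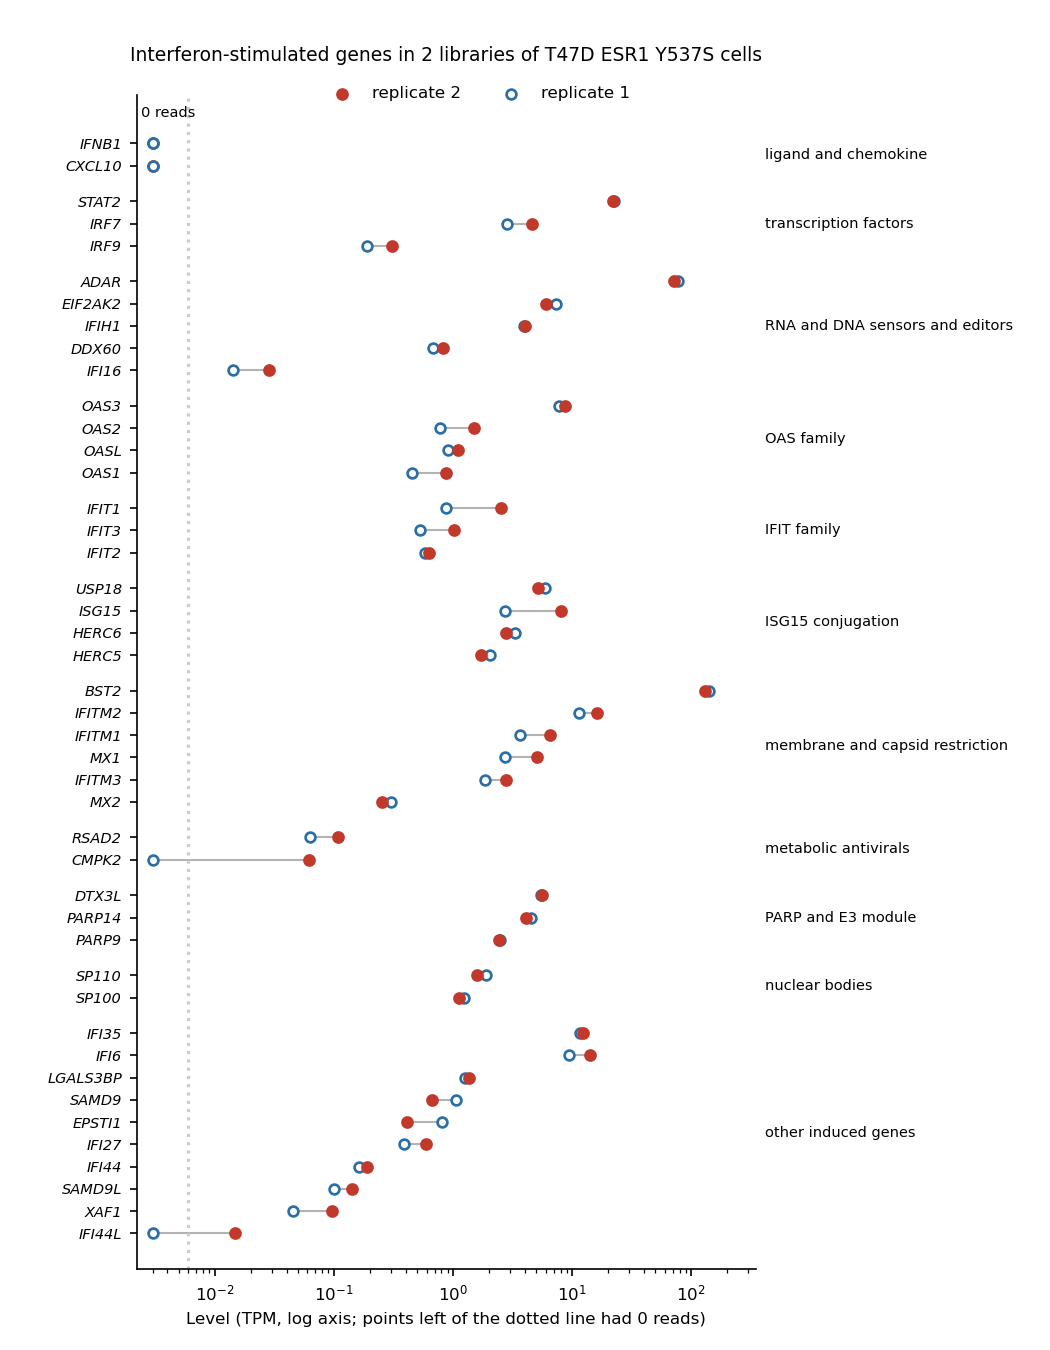
Level of each of the 44 interferon-stimulated genes in TPM (log axis), grouped by role, with replicate 2 as filled red points and replicate 1 as open blue points joined by a line. BST2 and ADAR lie far to the right with overlapping points, ISG15 and IFIT1 have the widest gaps among detected members, and IFNB1 and CXCL10 had 0 reads in both libraries.

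The ligand and the chemokine of the list were silent. IFNB1, which encodes interferon beta, had 0 reads in both libraries, which allows up to 0.0806 CPM in replicate 2 and 0.0725 CPM in replicate 1 (3 reads). CXCL10, a chemokine that draws T cells, also had 0 reads in both. The list therefore described downstream genes with no interferon beta transcript seen at this depth.

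The transcription factors of the response were unequal. STAT2, the interferon-specific signal transducer, was the third-highest member with 22.1 TPM in replicate 2 and 22.6 TPM in replicate 1. Its partner IRF9 had 0.308 TPM in replicate 2 (31 reads) and 0.189 TPM in replicate 1 (19 reads). IRF9 was below the detection level in both libraries, but 48.4% of its exon bases are shared with another annotated gene, and reads that fit both genes were left out of the counts, so its level may be underestimated. IRF7, which amplifies interferon production, had 4.58 TPM in replicate 2 and 2.83 TPM in replicate 1.

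Among sensors and editors of RNA and DNA, ADAR dominated. ADAR, which converts adenosine to inosine in double-stranded RNA, had 71.8 TPM in replicate 2 and 77.7 TPM in replicate 1. EIF2AK2, the kinase PKR that stops translation on double-stranded RNA, had 6.02 TPM in replicate 2 and 7.29 TPM in replicate 1. The editor thus exceeded the kinase 11.9-fold in replicate 2 and 10.7-fold in replicate 1. IFIH1, the sensor MDA5 of long double-stranded RNA, had 4.01 TPM in replicate 2 and 3.91 TPM in replicate 1. DDX60, a helicase tied to RNA sensing, stood at 0.821 TPM in replicate 2 and 0.676 TPM in replicate 1. IFI16, a sensor of DNA, had only 4 reads in replicate 2 and 2 reads in replicate 1.

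The oligoadenylate synthetases make the second messenger that switches on RNase L, and OAS3, the largest of them, was by far the highest. OAS3 (chr12:113376157-113411054 in hg19) had 8.69 TPM in replicate 2 and 7.69 TPM in replicate 1. OAS3 lies between OAS1 and OAS2. OAS2 had 1.499 TPM in replicate 2 and 0.777 TPM in replicate 1, and OAS1 had 0.878 TPM in replicate 2 and 0.454 TPM in replicate 1. OAS2 and OAS1 lay apart between the libraries by about as much as each other, and OAS3 by less. OASL, a relative without synthetase activity, had 1.10 TPM in replicate 2 and 0.905 TPM in replicate 1.

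The IFIT proteins bind foreign RNA ends, and their genes lie side by side on chromosome 10. IFIT1 (chr10:91152303-91163745 in hg19), which recognises caps without ribose methylation, had 2.54 TPM in replicate 2 (207 reads) and 0.870 TPM in replicate 1 (71 reads). Its partner IFIT3 had 1.03 TPM in replicate 2 (72 reads) and 0.529 TPM in replicate 1 (37 reads). IFIT2 had 0.627 TPM in replicate 2 (58 reads) and 0.584 TPM in replicate 1 (54 reads). IFIT1 was thus well apart between the libraries while IFIT2 was not, and IFIT3 was below 1 CPM in replicate 1 alone.

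In the ISG15 system the modifier was far apart between the libraries, and the ligase and the protease on this list were not. ISG15 (chr1:948803-949920 in hg19), a ubiquitin-like protein, had 8.01 TPM in replicate 2 (151 reads) and 2.71 TPM in replicate 1 (51 reads). USP18, which removes ISG15 and restrains receptor signalling, had 5.14 TPM in replicate 2 and 5.94 TPM in replicate 1. HERC5, the main ISG15 ligase in human cells, had 1.73 TPM in replicate 2 and 2.03 TPM in replicate 1. The ligase and the protease were both within the replicate spread of genes at their level. HERC6, which does this work in mice, had 2.81 TPM in replicate 2 and 3.32 TPM in replicate 1.

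The membrane and capsid factors held both the highest member and some of the widest gaps. BST2 (chr19:17513748-17516457 in hg19), or tetherin, which ties budding virions to the cell, had 130.1 TPM in replicate 2 and 140.7 TPM in replicate 1. IFITM2 had 16.1 TPM in replicate 2 and 11.5 TPM in replicate 1. IFITM1 had 6.53 TPM in replicate 2 and 3.67 TPM in replicate 1, and IFITM3 had 2.77 TPM in replicate 2 and 1.85 TPM in replicate 1. The IFITM proteins block fusion of entering viruses, and their genes are near-copies of each other whose exons overlap other annotated genes over 32.5% of IFITM1, 26.9% of IFITM2 and 21.3% of IFITM3. Reads that fit several genes or copies were left out of the counts, so the division among the IFITM genes is uncertain. MX1 (chr21:42792231-42831141 in hg19), a GTPase that blocks influenza viruses, had 5.03 TPM in replicate 2 (1148 reads) and 2.73 TPM in replicate 1 (622 reads). MX2, its neighbour and a restriction factor of HIV, had 0.255 TPM in replicate 2 and 0.304 TPM in replicate 1.

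Genes of antiviral nucleotide metabolism were close to silent. RSAD2, or viperin, which makes a chain-terminating nucleotide, had 14 reads in replicate 2 and 8 in replicate 1. CMPK2, the adjacent kinase that supplies its substrate, had 7 reads in replicate 2 and 0 in replicate 1. With 0 reads in 1 library CMPK2 has no fold, and the counting interval of its ratio, replicate 2 over replicate 1, began at 1.63.

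The PARP9, DTX3L and PARP14 group, which attaches ADP-ribose and ubiquitin, differed little between the libraries. DTX3L, the ubiquitin ligase, had 5.62 TPM in replicate 2 and 5.47 TPM in replicate 1. PARP14 had 4.07 TPM in replicate 2 and 4.56 TPM in replicate 1, and PARP9, the partner of DTX3L, had 2.42 TPM in replicate 2 and 2.46 TPM in replicate 1. All 3 were within 1.2-fold between the libraries. SP100, a scaffold of PML nuclear bodies, had 1.13 TPM in replicate 2 and 1.25 TPM in replicate 1. SP110, its relative, had 1.60 TPM in replicate 2 and 1.89 TPM in replicate 1, with 20.9% of its exon bases shared with other genes.

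The remaining 10 members ranged widely in level. IFI35 had 12.3 TPM in replicate 2 and 11.7 TPM in replicate 1, and IFI6, a protein of the endoplasmic reticulum that restricts flaviviruses, had 14.2 TPM in replicate 2 and 9.42 TPM in replicate 1. LGALS3BP, a secreted galectin-binding protein, had 1.36 TPM in replicate 2 and 1.26 TPM in replicate 1. IFI27 had 0.599 TPM in replicate 2 and 0.390 TPM in replicate 1. These 4 were even or higher in replicate 2. SAMD9, a poxvirus restriction factor, had 0.666 TPM in replicate 2 and 1.05 TPM in replicate 1. EPSTI1 (chr13:43460524-43566407 in hg19) had 0.414 TPM in replicate 2 and 0.812 TPM in replicate 1. IFI44, IFI44L, XAF1, which favours cell death, and SAMD9L, the neighbour of SAMD9, were not detected and had between 4 and 27 reads in replicate 2 and between 0 and 19 in replicate 1.

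To compare the libraries gene by gene, reads were divided by TMM effective library sizes, which correct for composition, and the fold of replicate 2 over replicate 1 was given with an exact conditional binomial 95% interval. The interval covers counting error only. On this scale the median detected gene had a log2 difference of -0.0031. In TPM that median was -0.18, so 6 members with log2 differences of at most 0.15 (ADAR, BST2, STAT2, SP100, PARP9 and PARP14) were higher in replicate 2 on the TMM scale and lower in TPM.

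Of the 33 detected members 11 were at least 1.5-fold higher in replicate 2 (33.3%), against 2.54% of all 14176 detected genes. They were ISG15, IFIT1, OAS1, OAS2, MX1, IFITM1, IRF7, IFI27, IFI6, IFITM3 and IFITM2. EPSTI1 was the 1 member at least 1.5-fold lower, against 1.47% of detected genes. By any amount 25 of the 33 were higher in replicate 2, against 49.3% of detected genes. The median log2 difference of the detected members was 0.25. The members' share beyond 1.5-fold was thus many times the background in 1 direction and close to it in the other. These are descriptions of 2 libraries and carry no p-value.

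The members with the largest gaps were induced genes of low or middling level. ISG15 had 4.06 CPM in replicate 2 and 1.23 CPM in replicate 1, a fold of 3.34 (interval 2.42 to 4.68). IFIT1 had 5.56 CPM in replicate 2 and 1.72 CPM in replicate 1, a fold of 3.29 (2.50 to 4.37). OAS1 had 2.45 CPM in replicate 2 and 1.14 CPM in replicate 1, a fold of 2.18 (1.52 to 3.18). The intervals of all 3 lie above 1.5-fold, so these gaps were larger than counting error gives if reads are independent. OAS2 had 6.69 CPM in replicate 2 and 3.12 CPM in replicate 1, a fold of 2.18 (1.75 to 2.71). MX1, the most deeply covered of them, had 30.9 CPM in replicate 2 and 15.0 CPM in replicate 1, a fold of 2.08 (1.89 to 2.30). IFITM1 had 5.03 CPM in replicate 2 and 2.54 CPM in replicate 1, a fold of 2.01 (1.57 to 2.58). IRF7 is the only transcription factor in the group, with 8.58 CPM in replicate 2 and 4.76 CPM in replicate 1, a fold of 1.83 (1.52 to 2.19).

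At the other end stood EPSTI1, with 1.45 CPM in replicate 2 and 2.56 CPM in replicate 1, a fold of 0.575 (0.406 to 0.805). SAMD9 had 3.25 CPM in replicate 2 and 4.62 CPM in replicate 1, a fold of 0.715 (0.564 to 0.902). EIF2AK2 had 46.1 CPM in replicate 2 and 50.2 CPM in replicate 1, a fold of 0.932 (0.874 to 0.994). These were the 3 detected members whose interval lay below 1, against 24.4% of detected genes. The interval lay above 1 for 18 of the 33, against 22.6% of detected genes, and included 1 for 12. Within 1.2-fold were 15 of the 33, against 77.6% of detected genes. The 3 members that hold most of the reads were among those 15, at folds of 1.04 for ADAR and for BST2 and 1.10 for STAT2.

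Low genes scatter more between replicates, so each member was also set against genes of its own level. In 5 classes of mean CPM the 95th percentile of absolute replicate differences was 2.04-fold between 1 and 2 CPM, 1.71-fold between 2 and 5, 1.45-fold between 5 and 10, 1.31-fold between 10 and 50, and 1.22-fold above 50 CPM. Of the 34 members at 1 CPM or more on average, 11 lay beyond the limit of their class (32.4%), against 5.02% of the 14668 genes in the classes. In the direction of replicate 2 the counts were 10 members, against 2.69% of genes. These were ISG15, IFIT1, IFIT3, OAS1, OAS2, MX1, IFITM1, IRF7, IFI6 and IFITM2. IFIT3 entered its class through its mean, which replicate 2 raised above 1 CPM. Among members detected in both libraries 10 lay beyond their limits in either direction, against 4.6% of such genes. EPSTI1 lay just beyond its limit on the low side, with a log2 difference of -0.80 against a limit of 0.78, and its mean of 2.01 CPM put it at the low edge of a class. IFI27 and IFITM3 passed 1.5-fold but lay within the scatter of their class. This count was defined after seeing the data.

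**Figure D2:**
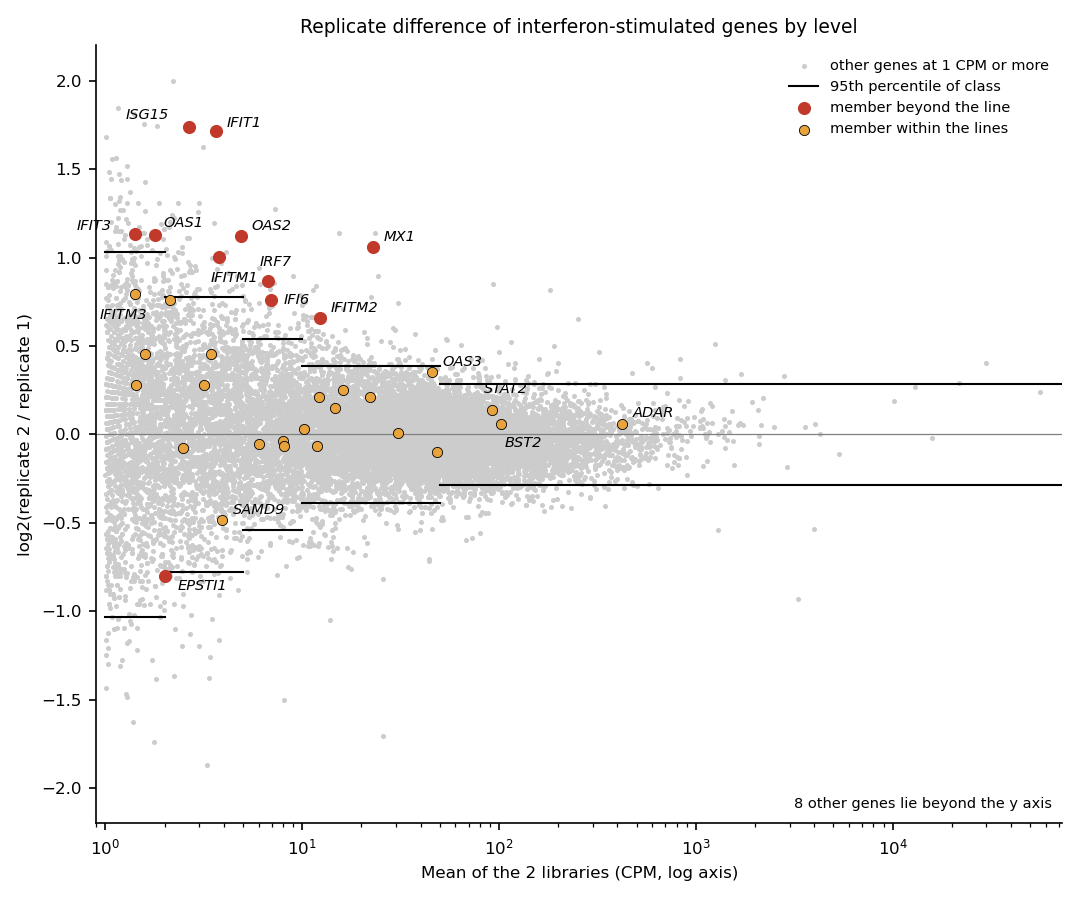
Log2 ratio of replicate 2 over replicate 1 against the mean level in CPM (log axis), with members as large points, all other genes at 1 CPM or more as grey points, and the 95th percentile of each level class as black lines. The 11 red members lie beyond their line, 10 of them above it and EPSTI1 below, and 8 other genes lie beyond the y axis.

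**Figure D3:**
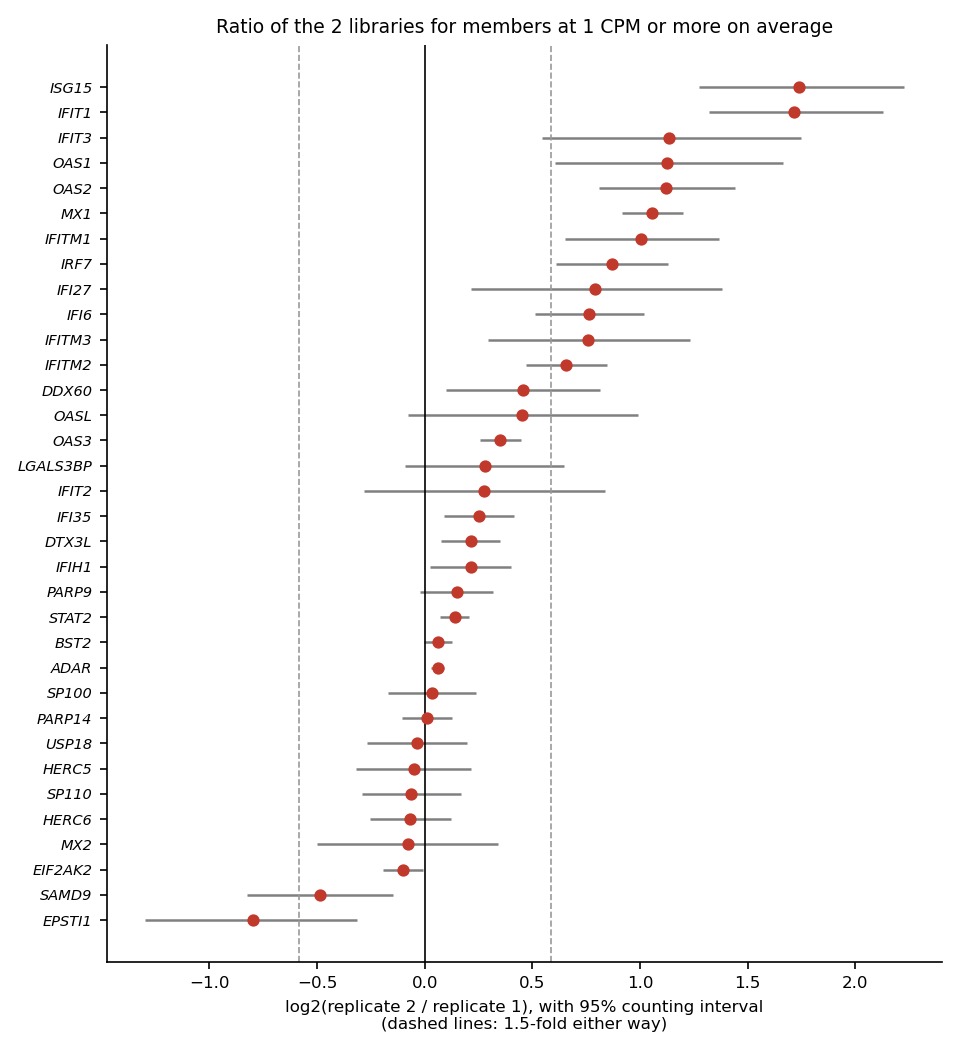
Log2 ratio of replicate 2 over replicate 1 for the 34 members at 1 CPM or more on average, in order, with the 95% counting interval as a bar and 1.5-fold as dashed lines. The values run from 1.74 for ISG15 to -0.80 for EPSTI1, and the bars of ADAR and STAT2 are short because those genes hold many reads.

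Of the 11 undetected members, 9 had reads, and all 9 had a higher CPM in replicate 2, against 51.5% of undetected genes with reads. IFIT3 is among the 9 because replicate 1 alone was below 1 CPM, so the filter fixed its direction. It was also counted above among the members beyond their class limit, so it adds nothing separate here. Besides IRF9, IFIT3, RSAD2, CMPK2 and IFI16, given above, XAF1 had 17 reads in replicate 2 and 8 in replicate 1, SAMD9L had 27 in replicate 2 and 19 in replicate 1, IFI44 had 14 in replicate 2 and 12 in replicate 1, and IFI44L had 4 in replicate 2 and 0 in replicate 1. The intervals of most single genes are wide: that of the XAF1 fold ran from 0.980 to 6.42. Those of IFI16, RSAD2, IFI44, IFI44L and SAMD9L also included 1, and that of IRF9 began at 1.01. The direction of most of these genes is thus not settled by their counts.

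Some markers of other cell types were also higher in replicate 2, at very low levels. The 7 immune markers summed to 2.31 CPM in replicate 2 and 0.846 CPM in replicate 1. PTPRC, the common leukocyte antigen, had 17 reads in replicate 2 and 0 in replicate 1, and CD14 had 16 in replicate 2 and 4 in replicate 1. CD74 had 48 reads in replicate 2 and 28 in replicate 1, LYZ had 5 in replicate 2 and 3 in replicate 1, and CD3E, MS4A1 and CD68 had 0 in both. Of 4 matched endothelial markers ESAM alone was detected, VWF had 12 reads in replicate 2 and 0 in replicate 1, and CDH5 and KDR had 0. Of 5 fibroblast markers COL1A1 alone was detected, at 8.15 CPM in replicate 2 and 6.62 CPM in replicate 1, while COL3A1 had 2 reads in replicate 2 and 10 in replicate 1. COL1A2 had 2 reads in replicate 2 and 0 in replicate 1, and DCN and PDGFRB had 0 in both. The part of these markers in the members' gap was not tested.

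Ratios within families show which members differed together. OAS1 over OAS2 was 0.585 in replicate 2 and 0.584 in replicate 1 in TPM, although both genes were about 2-fold apart between the libraries. OAS3 over OAS2 was 5.80 (5.08 to 6.64) in replicate 2 and 9.90 (8.27 to 11.9) in replicate 1, with counting intervals that do not overlap. MX1 over MX2 was 19.7 (15.9 to 24.8) in replicate 2 and 8.98 (7.30 to 11.1) in replicate 1. IFIT2 over IFIT1 was 0.247 (0.182 to 0.332) in replicate 2 and 0.671 (0.462 to 0.970) in replicate 1. The OAS and IFIT families thus each held a member that was much higher in replicate 2 and one that was less so. Of the MX genes, MX1 was much higher in replicate 2 and MX2 was not (fold 0.947, interval 0.706 to 1.27). In other families the ratio held: IFI6 over IFI27 was 23.7 in replicate 2 and 24.1 in replicate 1, and HERC6 over HERC5 was 1.62 in replicate 2 and 1.64 in replicate 1. DTX3L over PARP9 was 2.33 in replicate 2 and 2.22 in replicate 1.

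Of 23 ratios set up within families and along the pathway, 16 were larger than the replicate spread, which needed intervals on the same side of 1 in both libraries and a mean past the class limit of the lower gene. That limit comes from the same gene in both libraries and was not set for pairs of different genes, so the count describes these pairs and says nothing particular of the members. IFIT3 over IFIT1 and OAS1 over OAS2 were within it in TPM, though past it in CPM, and 5 had a lower gene under 1 CPM and so no limit. The call on IFIT2 below IFIT1 rested on replicate 2, since its log2 ratio of -0.58 in replicate 1 alone was within the limit of 1.03. SP100 was lower than SP110 per exon base, with ratios of 0.704 in replicate 2 and 0.659 in replicate 1, but SP100 had more reads in both. That call rested on replicate 1, since the log2 ratio of -0.51 in replicate 2 alone was within the limit of 0.54.

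The size of the replicate gap was also set beside the promoter matches. Detected members that held the response element had a median log2 difference of 0.28 (n = 19, range -0.80 to 1.74). Those with a window but no match had a median of 0.06 (n = 7, range -0.07 to 1.13). Within the first group, members with at least 2 matches in a window had a median of 0.76 (n = 11, range -0.05 to 1.74). Those with 1 match had a median of 0.08 (n = 8, range -0.80 to 1.06). Overlapping matches were counted separately. Members with at least 2 matches included ISG15 and IFIT1 but also BST2 and HERC5, which hardly differed. OAS1 had no match and MX1 had 1, and both were about 2-fold apart. The split by number of matches was made with the replicate differences known, so it is a description, and the 7 members without a window, with a median of 0.45, include OAS2 and IRF7.

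**Figure D4:**
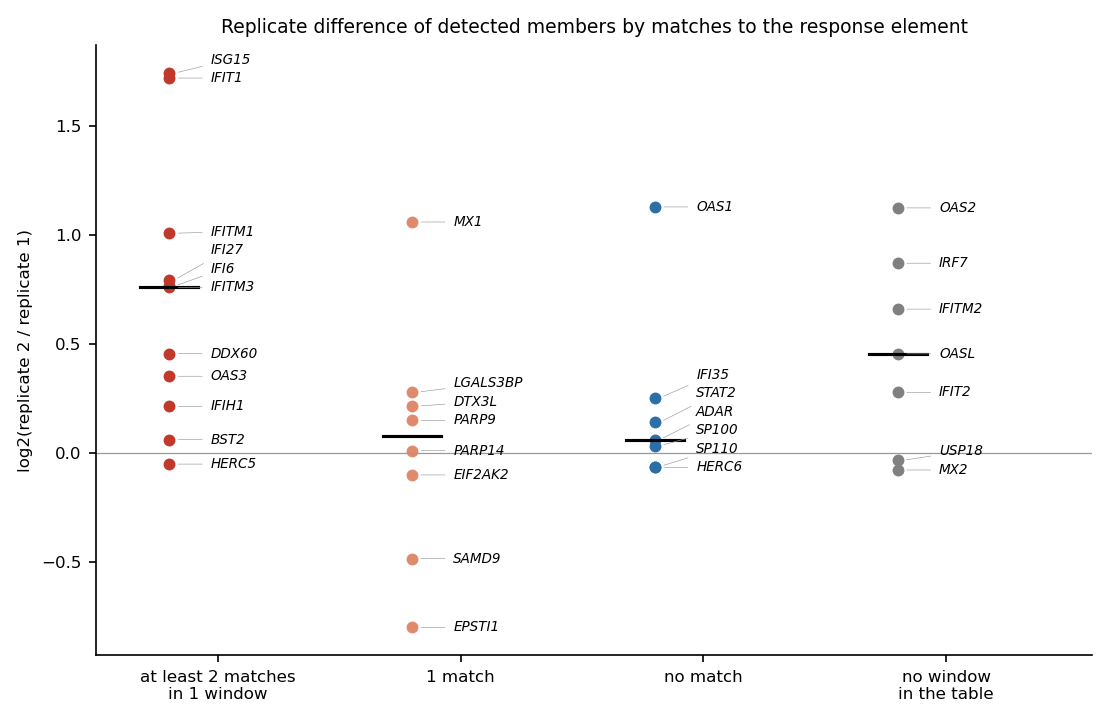
Log2 ratio of replicate 2 over replicate 1 for the 33 detected members, split by the number of response element matches in a promoter window, with the median of each group as a black bar. The groups overlap: BST2 and HERC5 lie near 0 among members with at least 2 matches, and OAS1 lies above 1 among members with none.

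The rest of the interferon pathway was read from a list of 36 genes, of which 34 were matched and 21 detected. None of the 8 ligands was detected: 7 had 0 reads in both libraries (IFNA1, IFNA2, IFNG, IFNE, IFNL1, IFNL2 and IFNL3), and IFNK had 0 reads in replicate 2 and 2 in replicate 1. All 6 receptor chains were detected, with a median log2 difference of -0.04. IFNAR1, a chain of the type I receptor, had 8.06 TPM in replicate 2 and 10.4 TPM in replicate 1, and its partner IFNAR2 had 1.12 TPM in replicate 2 and 1.23 TPM in replicate 1. JAK1 had 100.5 TPM in replicate 2 and 113.9 TPM in replicate 1, and TYK2 had 9.83 TPM in replicate 2 and 10.4 TPM in replicate 1. Receptors and kinases were thus transcribed, and none of these 8 genes lay beyond the limit of its level class.

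At least 1.5-fold higher in replicate 2 were 3 of the 21 detected pathway genes, and none was lower by as much, against the 2.54% higher and 1.47% lower among all detected genes. These were SOCS3, a feedback inhibitor of cytokine receptors, at 4.92 CPM in replicate 2 and 2.18 CPM in replicate 1 (log2 1.198), IRF1, a transcription factor induced by interferon gamma (log2 0.96), and DHX58, the sensor LGP2 (log2 0.75). The median log2 difference over the 21 was 0.0042. The log2 difference was 0.0021 for DDX58, the sensor RIG-I, and 0.19 for MAVS, the adaptor through which RIG-I and MDA5 signal. The lowest was IRF2, a factor that opposes IRF1, at -0.30.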

How the data were processed

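Total RNA of T47D cells with ESR1 Y537S and a control siRNA was sequenced as stranded libraries depleted of ribosomal RNA, per the labels' protocols. Whole-number counts without normalization were made by the authors with featureCounts 2.0.2 on the exons of each GENCODE release 19 gene, per the file headers. The recorded call set no option for strand, pairs, multimapping or overlap, so reads that fit several genes were left out and antisense reads were not separated. If fragments were sequenced in pairs, each mate was then counted as its own read. Per the submitters' processing notes HISAT2 and hg19 (GRCh37) were used, with no version of HISAT2 stated there. Exon lengths came from the deposited table.

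The labels gave 1 group of 2 libraries (37198274 reads in replicate 2, 41370662 in replicate 1). Another 8 columns that match no labelled sample were not used in any step. Columns were matched by line, receptor residue and replicate number. Replicate spread may be technical.

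CPM and TPM were computed from the deposited counts over all 57820 genes. TMM factors came from edgeR 4.0.16 and size factors of an alternative from DESeq2 1.42.0. Symbols were matched by gene identifier for 51996 genes (89.9%), and rows without a name held 11.6% of the reads in replicate 2 and 9.83% in replicate 1. Gene types came from GENCODE release 29, by identifier. MB21D1, IKBKE and PECAM1 were not matched. Levels over the list use log2(TPM + 0.1). Intervals of ratios are exact conditional binomial 95% intervals; the floor for 0 reads is 3 reads per library. Both cover counting error only: without molecular identifiers, reads are not independent molecules. Mates counted singly would also make the intervals too narrow. The ratio steps were tested on simulated counts that held counting error alone, so that test cannot speak to wider spread between replicates. The rule for named genes takes all members and all genes of the pathway list; 1 gene of that list is not reported here. Members, lists and pairs were chosen with earlier results of these data known.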

Additional observations from a re-analysis of the deposited data

How the results depend on the processing

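With 1 group, no difference between conditions could be tested, and the replicate differences cannot be recomputed without a replicate. No paired analysis was possible because the 2 libraries belong to 1 group. The median level of the members (log2(TPM + 0.1)) was 0.59, and 0.44 to 0.72 in single libraries. It was 1.29 with a pseudocount of 1 TPM, 2.28 in TPM over protein-coding genes, 1.84 in CPM, 0.36 over members sharing at most 10% of their exon bases, and 1.66 over detected members. These settings change the scale or the genes included. Detection gave 33 to 34 members in single libraries and 30 to 37 by the other thresholds tried. The share of all genes was not computed for these settings. The 11 members at least 1.5-fold higher in replicate 2 became 18 with no filter beyond 1 read (14.5% of genes), 3 of 18 at 5 CPM or more (0.474%) and 6 at 2-fold or more (0.275%). The 1 member lower became 0 at 5 CPM or more and 0 at 2-fold or more. In TPM, chosen after seeing the data, 9 were higher and 2 lower (0.903% and 3.67% of genes), and the median difference of the members was 0.08 where that of all detected genes was -0.18. DESeq2 size factors, total counts and protein-coding totals kept the counts at 11 and 1. Over the 29 detected members sharing at most 10% of their exon bases, 8 were higher and 1 lower. All detected genes had 2.54% higher and 1.47% lower. That setting leaves out IFITM1, IFITM2 and IFITM3. Pair ratios past the spread numbered 15 to 16 in single libraries, and in CPM IFIT2 over IFIT1 was no longer called (log2 -1.12), while IFIT3 over IFIT1 (-1.23) and OAS1 over OAS2 (-1.45) were. SP100 over SP110 reversed in CPM (log2 0.33), which leaves out exon length. The count beyond the class limits, also added later, was 10 to 11 in most settings tried. It was 9 of 30 among members sharing at most 10% of their exon bases. With the limit at the 90th percentile it was 13, but more of all genes pass that limit by its definition. No share of all genes was computed at that percentile.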
